A study of Mus musculus with 16 samples.

Results

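Cholesterol and fatty acids are made from acetyl-CoA by enzymes whose genes are largely under SREBP control, and 34 such genes were followed here in kidney and liver of aged mice that received a *Fos* hairpin. They were listed by name from knowledge of the pathway, when earlier results of these data were already known, so the list was not chosen blind: the cholesterol and fatty acid synthesis enzymes, the SREBP factors with the proteins that hold and escort them, and a few genes of sterol transport and glycerolipid synthesis. All 34 were present among the 24984 genes of the count tables. All 34 also passed the filter on low counts in both tissues, where 14892 genes were tested in kidney and 13144 in liver.

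The mice were female wild-type C57BL/6 animals with a labelled age of 24 months, which the study's methods give as the age at injection, with tissue collected later. Each had received AAV8 intravenously, loaded in shFos mice with a hairpin that targets *Fos* and in NT mice with a hairpin that has no target. Bulk RNA was sequenced from kidney and liver, with 4 libraries for each tissue and treatment and 16 in all. Neither the labels nor the methods restrict the vector to a cell type. Both groups received the virus, and none of these 16 libraries came from uninjected mice, so effects of the vector itself cannot be told apart here. Kidney libraries held 14194543 to 15534665 reads on genes and liver libraries 16652150 to 18300277. Levels are given as CPM, a gene's reads relative to the library total after TMM scaling within the tissue, and each list of values runs from replicate 1 to replicate 4.

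Some libraries stood apart from their group in marker genes. In kidney NT replicate 4 the summed level of 5 proximal tubule markers was 4775 CPM, against 13531 to 15298 CPM in the other NT kidneys, and 5 lymphocyte markers summed to 11.7 CPM, against 108 to 245 CPM. Kidney shFos replicate 2 held the highest sum of 9 adipocyte markers, 1087 CPM, against 163 to 547 CPM in the other 7 kidney libraries. Its 2 brown adipocyte markers summed to 161 CPM, against 0.614 to 27.7 CPM in those libraries. In liver NT replicate 4 the 5 hepatocyte markers summed to 42576 CPM, against 109948 to 185971 CPM in the other 7 livers. Among the members themselves, kidney shFos replicate 1 lay inside the NT range for 25 of 34, a count given without the share of all genes tested. Its log2 CPM correlated (Pearson) at 0.961 to 0.986 with the NT kidneys and at 0.957 to 0.972 with the other shFos kidneys. All 5 markers of the proximal tubule and all 5 of other nephron segments had reads in every kidney library, and all 5 hepatocyte markers had reads in every liver library. In the livers the proximal tubule sum was at most 5.0 CPM.

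In the mevalonate branch, acetyl-CoA units are joined to HMG-CoA, reduced, phosphorylated and built up into farnesyl diphosphate, which squalene synthase and the later sterol enzymes turn into cholesterol. When sterols are scarce in the endoplasmic reticulum, SCAP escorts SREBP to the Golgi, where it is cleaved and released to the nucleus, whereas INSIG proteins hold the complex back when sterols are plentiful. SREBP-2 is known mainly for sterol genes and SREBP-1c for fatty acid genes, the latter also driven by insulin in the liver, which exports much of the lipid that it makes.

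*Fos*, the target of the hairpin, was low in every library. In NT kidneys it read 6.71, 5.26, 4.23 and 5.29 CPM, and in shFos kidneys 2.57, 4.12, 3.93 and 2.30 CPM. All 4 shFos kidneys lay below all 4 NT kidneys, the closest pair being 4.12 and 4.23 CPM. The same separation was found for 1198 of all 14892 genes tested in kidney, so it is not particular to *Fos*. The *Fos* means were 5.37 ± 1.015 CPM in NT and 3.23 ± 0.929 CPM in shFos (SD, n = 4), a ratio of 0.602. The log2 fold change was -0.73 ± 0.25 (SE), with an adjusted p of 0.0955 by edgeR and 0.0463 by DESeq2, and with a range of 0.0463 to 0.225 over the alternatives. The exact two-sided permutation test on the CPM gave 0.0286, the smallest p that 70 assignments allow.

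Liver *Fos* read 1.121, 2.37, 3.70 and 2.86 CPM in NT and 1.63, 1.5, 2.76 and 1.38 CPM in shFos. The liver groups overlapped, since NT replicate 1 was the lowest of all 8 livers. Its ratio of means was 0.723, and the log2 fold change of -0.47 ± 0.38 (SE) had an adjusted p of 0.778 by edgeR (range over the alternatives 0.537 to 0.959). With single livers left out that log2 fold change ranged from -0.75 to -0.23. The difference between the tissues in this log2 change was 0.27 ± 0.47 (SE), with an adjusted p of 0.826 by edgeR, and became -0.18 without replicate 1. These values rest on 17 to 102 reads per library.

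The members lay on 16 chromosomes, with at most 4 on the same one (*Srebf1*, *Fasn*, *Acaca* and *Acly* on chromosome 11). RefSeq promoter windows of 300 bases (GRCm38.p6, the mm10 build), from 250 bases before to 50 after a start site, were available for 28 of the 34 members. Those without an entry were *Fdps*, *Fdft1*, *Sqle*, *Stard4*, *Scd1* and *Npc1*. Each window was searched on both strands for the letters TCACNCCAC (sterol regulatory element), CCAAT (the site of NF-Y), CACGTG (E-box) and TGANTCA (AP-1 site). A gene can have several windows, 38 for the 28 members and 32851 for all 27025 genes, so shares are given per window. A CCAAT match stood in 24 of the 28 members (65.8% of their windows, against 37.4% of all windows). The 4 members without one were *Scap*, *Acat2*, *Acaca* and *Elovl6*. An E-box match was present for 5 members (15.8% of their windows, against 7.15% of all), namely *Hsd17b7*, *Sc5d*, *Dhcr7*, *Insig1* and *Scap*.

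The sterol regulatory element in this spelling occurred in 1 member, *Hmgcs1* (2.63% of the members' windows, against 1.24% of all), 137 bases upstream of the start. AP-1 matches occurred in 3 members (7.89% of windows, against 7.81% of all), and lay 127 bases upstream in *Msmo1*, 106 bases upstream in *Dhcr7* and 6 bases upstream in *Me1*. A match describes letters in a window and does not show a bound site. The windows printed here are those of *Hmgcs1*, which held the sterol element, of *Me1*, which held an AP-1 match, and of the members with the smallest p in kidney (*Sc5d*, *Idi1*, *Nsdhl*) and liver (*Acly*). They are chr13:119690101-119690400 on the + strand for *Hmgcs1*, chr13:8885356-8885655 on the + strand for *Idi1*, chrX:72918271-72918570 on the + strand for *Nsdhl* and chr9:42264251-42264550 on the - strand for *Sc5d*. For *Acly* the window is chr11:100527951-100528250 on the - strand and for *Me1* chr9:86695865-86696164 on the - strand. Sequences run 5′ to 3′ along the gene's strand, and capitals mark the motif matches, which read ATTGG where CCAAT lies on the other strand.
Hmgcs1: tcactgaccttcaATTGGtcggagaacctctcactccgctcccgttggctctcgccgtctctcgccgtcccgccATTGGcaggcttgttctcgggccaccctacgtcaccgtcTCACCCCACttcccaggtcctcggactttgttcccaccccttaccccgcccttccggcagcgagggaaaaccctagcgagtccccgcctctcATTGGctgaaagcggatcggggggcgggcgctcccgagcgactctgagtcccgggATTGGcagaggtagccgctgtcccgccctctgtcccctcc
Idi1: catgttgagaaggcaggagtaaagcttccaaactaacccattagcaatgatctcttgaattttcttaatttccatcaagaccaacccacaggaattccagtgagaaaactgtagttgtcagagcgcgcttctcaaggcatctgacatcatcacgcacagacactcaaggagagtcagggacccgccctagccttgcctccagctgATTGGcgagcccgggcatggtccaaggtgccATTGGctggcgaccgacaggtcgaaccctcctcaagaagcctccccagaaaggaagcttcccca
Nsdhl: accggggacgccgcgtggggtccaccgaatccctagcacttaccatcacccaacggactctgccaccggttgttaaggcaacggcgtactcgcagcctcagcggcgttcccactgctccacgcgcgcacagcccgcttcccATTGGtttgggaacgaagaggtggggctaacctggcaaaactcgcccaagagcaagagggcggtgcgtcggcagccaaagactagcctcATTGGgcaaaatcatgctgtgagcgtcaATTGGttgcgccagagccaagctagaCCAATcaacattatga
Sc5d: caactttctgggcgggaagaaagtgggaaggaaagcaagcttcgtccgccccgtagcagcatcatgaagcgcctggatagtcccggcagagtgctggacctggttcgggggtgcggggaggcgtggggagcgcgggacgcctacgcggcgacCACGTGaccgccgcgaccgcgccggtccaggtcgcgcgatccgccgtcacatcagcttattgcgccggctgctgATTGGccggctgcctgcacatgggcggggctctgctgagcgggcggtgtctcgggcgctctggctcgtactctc
Acly: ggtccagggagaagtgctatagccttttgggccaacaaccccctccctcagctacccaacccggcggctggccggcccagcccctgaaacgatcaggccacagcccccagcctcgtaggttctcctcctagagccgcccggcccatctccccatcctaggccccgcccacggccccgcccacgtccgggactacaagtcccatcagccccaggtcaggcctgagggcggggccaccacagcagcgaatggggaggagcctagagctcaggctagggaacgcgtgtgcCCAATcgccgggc
Me1: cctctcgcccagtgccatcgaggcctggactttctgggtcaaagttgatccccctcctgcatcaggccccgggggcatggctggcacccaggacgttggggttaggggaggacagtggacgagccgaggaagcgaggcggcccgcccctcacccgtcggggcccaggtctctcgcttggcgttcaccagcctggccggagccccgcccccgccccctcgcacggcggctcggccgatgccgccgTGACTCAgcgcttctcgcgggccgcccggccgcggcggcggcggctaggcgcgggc

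In kidneys of the shFos group 33 of the 34 members had a higher fitted level than in NT kidneys, the exception being *Gpam*. Of all genes tested, 50.3% were higher. The members' median log2 fold change was 0.30, against 0.00225 over all genes tested, and 14 members had an unadjusted p under 0.05, all of them higher in shFos. That background was broad, since 17.1% of all genes tested were higher and 14.8% lower at the same unadjusted p, a balance that upper-quartile scaling turned, with 1970 genes higher (13.2%) and 2677 lower. With that scaling 9 members had such a p, all higher. No member passed an adjusted p of 0.05 by edgeR, which called 0 of 14892 genes (0%) although 4747 had an unadjusted p under 0.05. By DESeq2 2581 genes were called, 9.77% of genes with an adjusted p being called higher, and 6 members were among them: *Idi1*, *Nsdhl*, *Sc5d*, *Scd1*, *Elovl6* and *Me1*. In bulk tissue, fewer cells of a type and less RNA per cell cannot be told apart, so none of these differences is assigned to a cell type.

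Separation of the groups was less common than a shared direction. All 4 shFos kidneys lay above all 4 NT kidneys for 5 members, *Sc5d*, *Insig2*, *Acat2*, *Scd1* and *Me1*, and for 9.16% of all genes tested. Without kidney shFos replicate 1 edgeR called 4126 genes, 12.5% of those tested being called higher, and 8 members: *Idi1*, *Msmo1*, *Nsdhl*, *Hsd17b7*, *Sc5d*, *Insig2*, *Acat2* and *Stard4*. In that setting the groups did not overlap for 14 members, against 21.9% of all genes tested, and 16 had an unadjusted p under 0.05 (all higher, as were 18.6% of all genes tested). Leaving out another library gave 0 called members, and all members with an unadjusted p under 0.05 were higher. They numbered 13, 6, 13 and 12 without NT replicates 1 to 4 (15.1%, 12.1%, 14.6% and 16.5% of all genes tested were higher at that p) and 7, 9 and 8 without shFos replicates 2 to 4 (13.4%, 12.7% and 11.8%). Without NT replicate 4, 3 genes were called, none of them a member. A removal of NT replicate 4 and shFos replicate 2 together, chosen after seeing the data, left 28 members higher, a median of 0.24 and 7 with an unadjusted p under 0.05 (all higher, against 13.1% of all genes tested). It also gave 0 calls by edgeR and 6 members without overlap, the same 5 and *Pmvk*, against 13.9% of all genes tested.

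**Figure D1:**
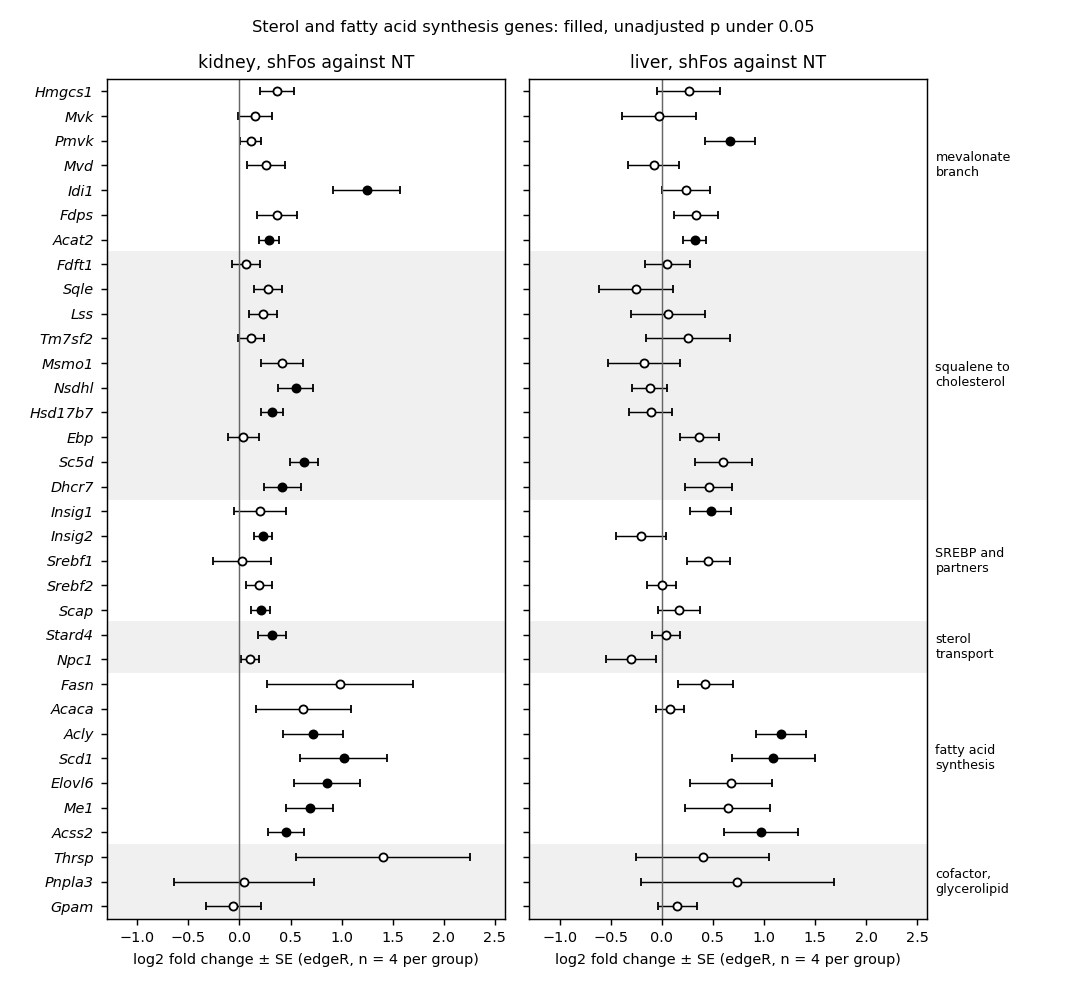
Log2 fold change (shFos against NT, ± SE, edgeR, n = 4 per group) of each of the 34 members in kidney (left) and liver (right), grouped by role, with filled points for an unadjusted p under 0.05. In kidney 33 points lie above 0 and 14 are filled, and in liver 25 lie above 0 and 6 are filled, while with upper-quartile scaling the kidney values of *Ebp* and *Srebf1* turn to -0.02 and -0.03.

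In the mevalonate branch all 7 enzymes had a positive kidney log2 fold change, with a median of 0.29. Of them 2, *Idi1* and *Acat2*, had an unadjusted p under 0.05, where 17.1% of all genes tested were higher. *Idi1*, the isomerase that makes the allylic building block of isoprenoids, read 24.0, 19.8, 21.8 and 15.3 CPM in NT kidneys and 23.3, 42.0, 79.8 and 47.3 CPM in shFos kidneys. Replicates 2, 3 and 4 of the shFos group lay above all NT kidneys, and replicate 1 lay among them. Its means were 20.2 ± 3.72 CPM and 48.1 ± 23.5 CPM (SD, n = 4), and its log2 fold change was 1.25 ± 0.33 (SE), the largest of this branch. The adjusted p was 0.0660 by edgeR, with a range of 0.00427 (DESeq2) to 0.192 over the alternatives, and in the fit of all 16 libraries *Idi1* was the only member called, at an adjusted p of 0.0326, where 3.86% of all genes tested were called higher. *Acat2*, the cytosolic thiolase that starts the pathway, read 65.5, 62.7, 62.9 and 53.6 CPM in NT and 66.7, 73.7, 73.5 and 84.4 CPM in shFos. The *Acat2* groups did not overlap, although the lowest shFos and the highest NT kidney were close, and the log2 fold change was 0.29 ± 0.10 (SE; adjusted p 0.0926 by edgeR, range 0.0423 to 0.235).

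*Hmgcs1*, which makes HMG-CoA, read 431, 344, 390.3 and 267 CPM in NT kidneys and 379.7, 432, 533 and 507 CPM in shFos kidneys. Replicates 2, 3 and 4 of the shFos group lay above every NT kidney, the closest pair being 431 and 432 CPM. A log2 fold change of 0.37 ± 0.17 (SE) came with an adjusted p of 0.164 by edgeR (range 0.0899 to 0.416). The kinase gene *Pmvk* read 23.3, 21.8, 21.1 and 27.0 CPM in NT and 23.5, 27.5, 24.5 and 25.3 CPM in shFos, with overlapping groups and a log2 fold change of 0.11. The log2 fold changes of the other 3 genes were 0.15 for *Mvk*, 0.26 for *Mvd* and 0.37 for *Fdps*. The value for *Fdps* rested largely on shFos replicate 3, at 81.2 CPM against 41.0 to 50.1 CPM in the other 3, and was 0.11 without it.

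Among the enzymes from squalene to cholesterol all 10 had a positive kidney log2 fold change, with a median of 0.30. An unadjusted p under 0.05 was reached by 4 (*Sc5d*, *Nsdhl*, *Hsd17b7* and *Dhcr7*), where 17.1% of all genes tested were higher. *Ebp* turned to -0.02 with upper-quartile scaling, -0.08 without NT replicate 4, -0.05 without shFos replicate 4 and -0.00568 without shFos replicate 1. *Sc5d*, the desaturase of a late sterol intermediate, read 37.9, 30.7, 35.8 and 32.7 CPM in NT kidneys and 40.7, 57.7, 61.7 and 52.6 CPM in shFos kidneys. All 4 shFos kidneys lay above all NT kidneys, with replicate 1 nearest to them. The means were 34.3 ± 3.22 CPM and 53.2 ± 9.12 CPM (SD, n = 4), and the log2 fold change was 0.63 ± 0.13 (SE). *Sc5d* had the smallest unadjusted p of the members in kidney, and its adjusted p was 0.0660 by edgeR and 0.00257 by DESeq2, with a range of 0.00257 to 0.192. Without shFos replicate 1 it was 0.00275 by edgeR.

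*Nsdhl*, a dehydrogenase of sterol demethylation, read 78.5, 86.4, 94.9 and 65.0 CPM in NT kidneys and 94.0, 105, 155 and 121 CPM in shFos kidneys. Only shFos replicate 1 overlapped the NT range, just below NT replicate 3. For *Nsdhl* the log2 fold change was 0.55 ± 0.17 (SE), with an adjusted p of 0.0781 by edgeR (range 0.0226, without shFos replicate 1, to 0.198). *Sqle*, the squalene epoxidase, read 69.1, 75.7, 88.2 and 97.1 CPM in NT and 82.3, 96.4, 116 and 106 CPM in shFos. Its groups overlapped, with NT replicate 4 above shFos replicates 1 and 2, and the log2 fold change was 0.28 ± 0.14 (SE; adjusted p 0.193 by edgeR, range 0.0969 to 0.612). The remaining log2 fold changes were 0.32 for *Hsd17b7*, 0.42 for *Dhcr7*, 0.42 for *Msmo1*, 0.23 for *Lss*, 0.11 for *Tm7sf2*, 0.06 for *Fdft1* and 0.04 for *Ebp*. *Fdft1* turned to -0.04 without shFos replicate 3.

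**Figure D2:**
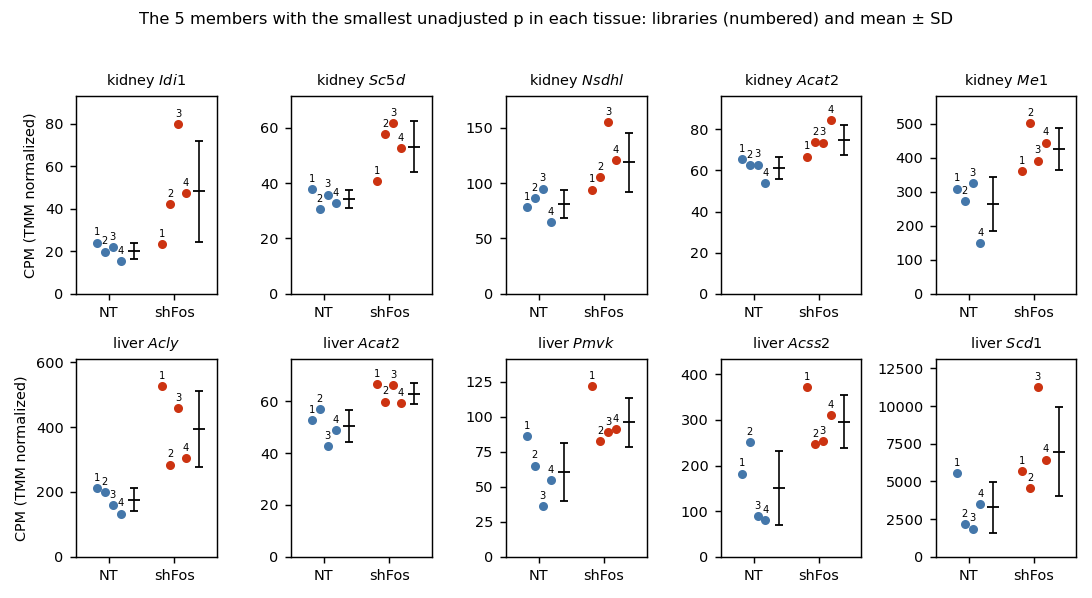
Levels (CPM, TMM scaled, linear axis from 0) of the 5 members with the smallest unadjusted p in kidney (top) and in liver (bottom), with each library as a numbered point and the mean ± SD of 4 beside it. Kidney *Sc5d* lies between 30.7 and 37.9 CPM in NT and between 40.7 and 61.7 CPM in shFos, and liver *Acly* between 133 and 211 CPM in NT and between 284 and 525 CPM in shFos.

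The 5 SREBP and partner genes all had positive kidney log2 fold changes, with a median of 0.20, though *Srebf1* turned negative with upper-quartile scaling. Of these 5 genes 2 had an unadjusted p under 0.05 (*Insig2* and *Scap*), where 17.1% of all genes tested were higher. *Srebf1* read 108, 54.0, 87.1 and 147 CPM in NT kidneys and 96.4, 134, 97.7 and 75.3 CPM in shFos kidneys. The 4 shFos values lay inside the NT range, and the log2 fold change of 0.03 turned to -0.03 with upper-quartile scaling and -0.00483 with a length correction. It was -0.19 without NT replicate 2, -0.03 without NT replicate 3 and -0.14 without shFos replicate 2. *Srebf2* read 118, 126, 146 and 109 CPM in NT and 120.0, 152, 167 and 131 CPM in shFos, with overlapping groups and a log2 fold change of 0.19 ± 0.13 (SE). *Insig1*, itself a target of SREBP, read 76.8, 50.3, 83.0 and 99.6 CPM in NT and 57.5, 117, 106 and 75.1 CPM in shFos. Replicates 2 and 3 of the shFos group were its highest kidneys and NT replicate 2 its lowest, and the log2 fold change of 0.20 ± 0.26 (SE) was 0.04 without shFos replicate 2 and 0.03 without NT replicate 2.

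*Insig2*, the other retention protein, varied little. It read 44.1, 42.9, 42.9 and 44.7 CPM in NT kidneys and 45.4, 49.6, 53.4 and 56.7 CPM in shFos kidneys, so that the groups did not overlap. *Insig2* thus had a log2 fold change of 0.23 ± 0.08 (SE), with an adjusted p of 0.104 by edgeR (range 0.0381 to 0.513). With a GC correction the log2 fold change was 0.13, with an unadjusted p of 0.0943 by edgeR. The escort gene *Scap* had a log2 fold change of 0.21. For the transport genes the values were 0.32 for *Stard4*, a cytosolic sterol carrier, and 0.10 for *Npc1*, which exports cholesterol from lysosomes and turned to -0.00321 with a GC correction and -0.02 with a length correction.

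The 7 fatty acid synthesis genes had the highest median of the 6 roles in kidney, 0.72, with all 7 log2 fold changes positive. That median was 0.43 without shFos replicate 2, and 0.26 with NT replicate 4 also removed, where the squalene to cholesterol role, at 0.30, was the highest. Of the 7 genes 5 had an unadjusted p under 0.05 (*Acly*, *Scd1*, *Elovl6*, *Me1* and *Acss2*), where 17.1% of all genes tested were higher. *Me1*, the malic enzyme that supplies NADPH, read 309, 272, 324 and 149 CPM in NT kidneys and 360.4, 501, 391 and 444 CPM in shFos kidneys. All shFos kidneys lay above all NT kidneys, and NT replicate 4 was far the lowest. *Me1* had a log2 fold change of 0.69 ± 0.23 (SE), with an adjusted p of 0.0878 by edgeR (range 0.0266, by DESeq2, to 0.246), and it was 0.40 with NT replicate 4 and shFos replicate 2 both removed. *Scd1*, the stearoyl-CoA desaturase, read 1695, 1073, 1851 and 417 CPM in NT and 2108, 3779, 1935 and 2406 CPM in shFos. These groups too did not overlap, with NT replicate 4 lowest and shFos replicate 2 highest. The log2 fold change of *Scd1* was 1.022 ± 0.42 (SE; adjusted p 0.139 by edgeR, range 0.0483 to 0.310) and 0.48 with those 2 libraries removed.

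*Fasn*, the fatty acid synthase, read 376, 178, 426 and 83.1 CPM in NT kidneys and 293, 1358, 291 and 162 CPM in shFos kidneys. Only shFos replicate 2 exceeded the NT range, and the other 3 shFos kidneys lay inside it. The means were 266 ± 162 CPM and 526 ± 558 CPM (SD, n = 4), and the log2 fold change was 0.99 ± 0.72 (SE; adjusted p 0.372 by edgeR, range 0.309 to 0.925). Without shFos replicate 2 it was -0.09, and with NT replicate 4 also removed -0.39. *Acaca*, the acetyl-CoA carboxylase, read 76.2, 36.0, 81.3 and 50.4 CPM in NT and 60.5, 195, 78.0 and 42.1 CPM in shFos, and again only shFos replicate 2 lay above the NT range. Its log2 fold change of 0.63 was -0.02 without that library and -0.10 with both removed. *Acly*, the citrate lyase that supplies cytosolic acetyl-CoA, read 260.0, 173, 283 and 134 CPM in NT and 270.0, 542, 286 and 302 CPM in shFos. Replicate 1 alone of the shFos kidneys was inside the NT range, and the log2 fold change of 0.72 was 0.43 without shFos replicate 2 and 0.26 with NT replicate 4 also removed.

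The elongase *Elovl6* had a log2 fold change of 0.86 in kidney, which was 0.55 without shFos replicate 2 and 0.35 with NT replicate 4 also removed. *Acss2*, the acetyl-CoA synthetase, had 0.46, which was 0.26 with both removed. *Acss2* read 143, 126, 159 and 89.8 CPM in NT kidneys and 143, 197, 199 and 172 CPM in shFos kidneys, with replicate 1 inside the NT range. The 3 genes of lipogenic regulation and glycerolipids had a median of 0.05 and none with an unadjusted p under 0.05. That median was -0.08 without shFos replicate 2 and 0.28 without NT replicate 4. *Thrsp*, a cofactor of lipogenesis, read 38.1, 11.5, 42.1 and 7.28 CPM in NT and 28.9, 184, 36.5 and 12.4 CPM in shFos. Its log2 fold change of 1.40 ± 0.85 (SE), the largest of all 34 members, was 0.07 without shFos replicate 2 and -0.23 with NT replicate 4 also removed. *Pnpla3*, a lipid droplet acylhydrolase, read 17.4, 6.34, 12.4 and 2.26 CPM in NT and 14.1, 18.1, 4.58 and 2.84 CPM in shFos, with overlapping groups. Its log2 fold change of 0.05 was -0.74 with both libraries removed. *Gpam*, the acyltransferase that starts glycerolipid synthesis, had a log2 fold change of -0.06, which became 0.28 without NT replicate 4, where it read 178 CPM.

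The fatty acid values are given here beside markers of fat cells. The 9 adipocyte markers, all 9 with reads in every kidney library except NT replicate 4 (8 of 9), summed to 412, 283, 464 and 547 CPM in NT kidneys and 282, 1087, 347 and 163 CPM in shFos kidneys. The most abundant of them, except in NT replicate 4 and shFos replicate 3, was *Fabp4*, at 456 CPM in shFos replicate 2 and 91.1 to 190.0 CPM in the other kidneys. The brown adipocyte markers *Ucp1* and *Cidea* summed to 27.7, 2.97, 10.1 and 4.19 CPM in NT and 9.58, 161, 0.930 and 0.614 CPM in shFos. *Ucp1* led that list at 117 CPM in shFos replicate 2 and was at 0 in NT replicate 4. The library with the highest sums was also the highest kidney for all fatty acid synthesis genes except *Acss2*, for *Thrsp* and *Pnpla3*, and for *Pmvk*, *Dhcr7*, *Insig1* and *Npc1*. *Sc5d*, *Idi1* and most other sterol enzymes were highest in shFos replicate 3. The part of the fat cell markers in the result was not tested beyond leaving that library out.

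**Figure D3:**
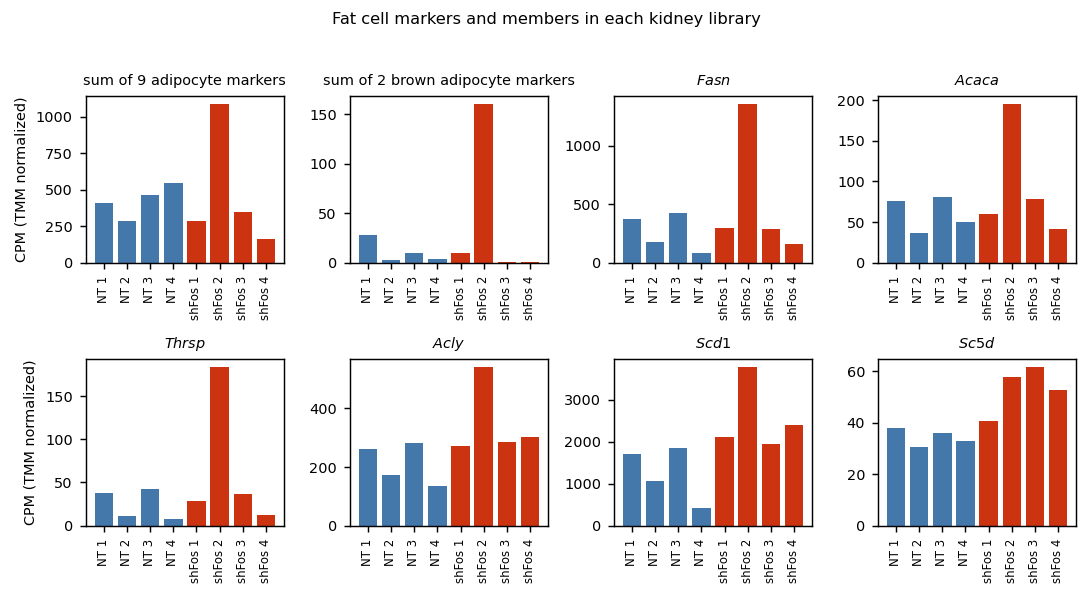
Levels (CPM, TMM scaled, bars from 0) in each of the 8 kidney libraries of the summed adipocyte and brown adipocyte markers and of *Fasn*, *Acaca*, *Thrsp*, *Acly*, *Scd1* and *Sc5d*. In shFos replicate 2 the adipocyte sum is 1087 CPM and *Fasn* is 1358 CPM, both the highest of the 8 kidneys, while *Sc5d* is highest in shFos replicate 3 at 61.7 CPM.

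Other marker lists also differed between kidney libraries. Proximal tubule markers summed to 13531, 15284, 15298 and 4775 CPM in NT and 17166, 15492, 10293 and 35573 CPM in shFos, led by *Kap* except in NT replicate 4 and shFos replicate 3, with *Kap* at 26157 CPM in shFos replicate 4. The sums overlapped, as did the groups for *Slc34a1*, *Slc5a2*, *Cubn* and *Kap* of this list. For *Lrp2* of the same list (log2 fold change 0.78) all shFos kidneys lay above all NT kidneys, as for 9.16% of all genes tested. The 5 other nephron markers, led by *Umod*, ranged from 7148 to 10049 CPM. Adrenal cortex markers, led by *Star* except in NT replicate 3, summed to 34.5 CPM in shFos replicate 2 and 8.01 to 21.9 CPM elsewhere, with 4 of 5 markers present in the other kidneys. Macrophage markers (5 of 5, led by *Lyz2*) ranged from 268 CPM in NT replicate 4 to 729 CPM and lymphocyte markers (led by *Jchain*) from 11.7 to 293 CPM, both with overlapping groups. The 4 endothelial markers, led by *Emcn*, summed to 292, 285, 301 and 229 CPM in NT and 385, 385, 320 and 341 CPM in shFos, so that all shFos kidneys lay above all NT kidneys. Of single genes tested in kidney, 9.16% were separated in that direction. Among these markers *Kdr* and *Cdh5* were so separated, while *Emcn* and *Pecam1* overlapped. Hepatocyte markers summed to between 103 and 443 CPM, the latter in NT replicate 4, where *Serpina1a* was at 317 CPM and *Alb* at 40.5 CPM. Of the 4 pancreas markers *Pnlip* and *Cpa1* were at 0 in all kidneys, and *Cela1* accounted for nearly all of sums of 27.2 to 117 CPM. The part of these lists in the members' values was not tested.

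In livers of the shFos group 25 of the 34 members had a higher fitted level than in NT livers, against 47.7% of all genes tested. The members' median log2 fold change was 0.26, against -0.01 over all genes. An unadjusted p under 0.05 was reached by 6 members, all higher in shFos (*Acly*, *Acat2*, *Pmvk*, *Acss2*, *Scd1* and *Insig1*), where 3.58% of all genes tested were higher and 3.16% lower. No member was called by edgeR, which called 0 of 13144 genes (0%) with 886 at an unadjusted p under 0.05. DESeq2 called 28 genes, 0.0939% of those with an adjusted p being called higher, and *Acly* was the only member among them.

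The groups did not overlap for 2 members in liver, *Acat2* and *Acly*, against 2.79% of all genes tested with all shFos livers above all NT livers. Without liver NT replicate 4, the library low in hepatocyte markers, 29 members were higher and the groups did not overlap for 3 (*Lss*, *Acat2* and *Acly*), against 4.34% of all genes. The number with an unadjusted p under 0.05 was 13 without NT replicate 1, of which 1 was lower (3.78% of all genes tested were higher and 5.38% lower). It was 3, all higher, without NT replicate 3 (3.69% of all genes tested) or shFos replicate 1 (2.24%). It was 6 without NT replicate 2 (3.90%), and 5 without NT replicate 4 (3.56%) or shFos replicates 2, 3 or 4 (3.24%, 2.26% and 2.84%), again all higher. No library whose removal was tried gave a call among the members by edgeR.

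Marker lists in the livers were led by hepatocyte markers. Led by *Alb*, these summed to 185971, 124857, 116696 and 42576 CPM in NT and 117472, 109948, 163172 and 123418 CPM in shFos. Most of each sum was *Alb*, whose groups overlapped, as did those of *Apoa1* (log2 fold change 0.05) and *Serpina1a* (0.03). For *Ttr* (0.87) and *Cps1* (0.61) all shFos livers lay above all NT livers, as for 2.79% of all genes tested. Macrophage markers, led by *Lyz2*, summed to 186, 448, 873 and 434 CPM in NT and 360.1, 469, 269.8 and 272 CPM in shFos, with NT replicate 3 the highest liver. Lymphocyte markers, led by *Jchain* except in NT replicate 3, ranged from 2.54 CPM in NT replicate 4 to 49.2 CPM, and endothelial markers, led by *Kdr* with the same exception, from 53.4 to 83.5 CPM. Adipocyte markers, led by *Lipe* except in NT replicate 4 and shFos replicates 2 and 3, and with 4 to 9 of 9 present, ranged from 15.04 to 41.5 CPM, and the brown adipocyte markers reached at most 0.167 CPM. Other nephron markers stayed at or under 0.945 CPM, adrenal cortex markers, led by *Akr1b7* except in shFos replicate 1 and with *Cyp11b1* at 0, between 6.06 and 17.0 CPM, and pancreas markers, with *Pnlip*, *Cpa1* and *Ins2* at 0, between 7.99 and 10.04 CPM. The part of these lists in the liver values was not tested.

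The fatty acid synthesis genes had the highest median of the 6 roles in liver as well, 0.68, with all 7 log2 fold changes positive. The median was 0.41 without NT replicate 4, and without NT replicate 1 it was 1.024, below the 1.21 of the 3 lipogenic and glycerolipid genes. Of the 7 genes 3 had an unadjusted p under 0.05, where 3.58% of all genes tested were higher. *Acly* read 211, 198, 159 and 133 CPM in NT livers and 525, 284, 459 and 304 CPM in shFos livers. Every shFos liver was above every NT liver, with replicates 1 and 3 the highest. Its means were 175 ± 35.8 CPM and 393 ± 118 CPM (SD, n = 4), a ratio of 2.24 and a log2 fold change of 1.16 ± 0.24 (SE). The adjusted p was 0.712 by edgeR and 0.0129 by DESeq2, with a range of 0.0129 to 0.959 over the alternatives. *Acss2* read 182, 251, 88.6 and 81.0 CPM in NT and 372, 247, 254 and 311 CPM in shFos, where shFos replicate 2 lay just below NT replicate 2. For *Acss2* the log2 fold change was 0.97 ± 0.36 (SE; adjusted p 0.715 by edgeR, range 0.311 to 0.959).

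*Scd1* read 5549, 2192, 1868 and 3493 CPM in NT livers and 5705, 4547, 11247 and 6445 CPM in shFos livers. Replicate 3 of the shFos group was the highest and replicate 2 lay below NT replicate 1, so that the groups overlapped. The log2 fold change was 1.09 ± 0.41 (SE; adjusted p 0.715 by edgeR, range 0.279 to 0.959). *Fasn* read 926, 689.8, 598 and 439 CPM in NT and 971, 1049.8, 575 and 969 CPM in shFos, with shFos replicate 3 inside the NT range and a log2 fold change of 0.43 ± 0.27 (SE). *Me1* read 236, 165, 172 and 79.3 CPM in NT and 232, 253, 114 and 423 CPM in shFos, with overlapping groups and a log2 fold change of 0.65 ± 0.42 (SE). *Elovl6* and *Acaca* had log2 fold changes of 0.68 and 0.08.

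Of the mevalonate branch 5 of 7 genes had a positive log2 fold change in liver, with a median of 0.26. *Acat2* read 52.7, 57.1, 42.7 and 48.9 CPM in NT livers and 66.7, 59.9, 66.2 and 59.2 CPM in shFos livers. Its groups did not overlap, as in kidney, and the log2 fold change was 0.32 ± 0.11 (SE; adjusted p 0.714 by edgeR, range 0.303 to 0.959). *Pmvk* read 86.0, 65.1, 36.3 and 54.8 CPM in NT and 122, 82.5, 88.8 and 91.0 CPM in shFos, where NT replicate 1 lay above shFos replicate 2 alone. The log2 fold change of *Pmvk* was 0.67 ± 0.24 (SE; adjusted p 0.714 by edgeR, range 0.302 to 0.959). *Hmgcs1* read 292, 658, 271 and 495 CPM in NT and 678, 438, 546 and 397 CPM in shFos, and *Idi1* read 53.2, 81.1, 44.2 and 56.6 CPM in NT and 64.9, 81.7, 84.2 and 46.1 CPM in shFos. Both overlapped widely, with log2 fold changes of 0.26 and 0.24. *Fdps* was at 0.34, and the 2 negative values were -0.03 for *Mvk* and -0.08 for *Mvd*, whose signs changed with several of the single libraries left out.

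Of the enzymes from squalene to cholesterol 6 of 10 had a positive log2 fold change in liver, with a median of 0.06 and none with an unadjusted p under 0.05. Without NT replicate 4 all except *Tm7sf2* (-0.06) and *Nsdhl* (-0.05) were positive, and the median lay between 0.08 (*Msmo1*) and 0.19 (*Sqle*). *Sc5d* read 603, 574, 375 and 246 CPM in NT livers and 779, 556, 707 and 689.7 CPM in shFos livers, where shFos replicate 2 lay inside the NT range. *Sc5d* had a log2 fold change of 0.60 ± 0.28 (SE; adjusted p 0.734 by edgeR, range 0.402 to 0.959). *Sqle* read 87.1, 92.7, 47.8 and 186 CPM in NT and 114, 80.8, 82.0 and 70.2 CPM in shFos. NT replicate 4 was the highest and NT replicate 3 the lowest liver for this gene, and the log2 fold change of -0.25 became 0.19 without NT replicate 4. *Nsdhl* read 92.3, 115, 65.1 and 112 CPM in NT and 89.4, 90.5, 87.5 and 87.2 CPM in shFos, with all shFos livers inside the NT range and a log2 fold change of -0.12. The others ran from -0.18 for *Msmo1*, which became 0.08 without NT replicate 4, to 0.46 for *Dhcr7*.

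Among the SREBP and partner genes *Insig1* read 521, 346, 365 and 271 CPM in NT livers and 539, 473, 559.9 and 522 CPM in shFos livers. NT replicate 1 lay among the shFos livers and the other 3 NT livers below them. *Insig1* had a log2 fold change of 0.48 ± 0.20 (SE; adjusted p 0.731 by edgeR, range 0.501 to 0.959). *Srebf1* read 302, 159, 236 and 177 CPM in NT and 323, 264, 293 and 319.7 CPM in shFos, again with NT replicate 1 alone inside the shFos range. The fold change of *Srebf1* was 0.46 ± 0.21 (SE) on the log2 scale. *Srebf2* read 55.2, 72.3, 63.0 and 86.0 CPM in NT and 78.1, 64.9, 69.1 and 64.2 CPM in shFos, with a log2 fold change of -0.00210 that was 0.11 without NT replicate 4. *Scap* and *Insig2* were at 0.17 and -0.20, *Stard4* and *Npc1* at 0.04 and -0.30.

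Of the genes of lipogenic regulation and glycerolipids, *Pnpla3* and *Thrsp* varied widely between livers and *Gpam* did not. *Pnpla3* read 382, 56.1, 86.1 and 15.6 CPM in NT and 139, 253, 47.4 and 460.3 CPM in shFos, so that its highest NT value was 24.5 times the lowest. *Thrsp* read 533, 211, 127 and 58.7 CPM in NT and 317, 420.4, 110.3 and 379 CPM in shFos. Replicate 1 was the highest and replicate 4 the lowest NT liver for both genes, and the groups overlapped, with log2 fold changes of 0.74 ± 0.94 and 0.40 ± 0.65 (SE). With single libraries left out these ranged from 0.12 to 2.08 for *Pnpla3* and from 0.07 to 1.21 for *Thrsp*. *Gpam* was at 0.15.

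Leaving out single libraries moved further values by more than 1.5 times without turning their sign. In kidney the log2 fold change ranged from 0.01 to 0.22 for *Mvk*, 0.07 to 0.19 for *Pmvk*, 0.10 to 0.37 for *Mvd*, 0.11 to 0.29 for *Lss*, 0.00737 to 0.16 for *Tm7sf2*, 0.24 to 0.52 for *Msmo1*, 0.11 to 0.28 for *Srebf2* and 0.07 to 0.14 for *Npc1*. In liver it ranged from 0.10 to 0.54 for *Hmgcs1*, 0.12 to 0.42 for *Idi1*, 0.16 to 0.45 for *Fdps*, -0.26 to -0.02 for *Nsdhl*, 0.23 to 0.48 for *Ebp*, 0.39 to 0.77 for *Sc5d* and 0.30 to 0.69 for *Dhcr7*. The liver ranges of the fatty acid synthesis genes were 0.26 to 0.62 for *Fasn*, 0.00815 to 0.14 for *Acaca*, 0.38 to 1.024 for *Elovl6* and 0.29 to 0.88 for *Me1*. Those of the others were 0.00462 to 0.31 for *Scap*, 0.03 to 0.29 for *Gpam* and -0.48 to -0.17 for *Npc1*.

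Spread among mice differed by role. The coefficient of variation over the 4 libraries of a group had a median over the 34 members of 17.0% in NT kidneys, 18.7% in shFos kidneys, 31.5% in NT livers and 18.6% in shFos livers. Over all genes tested these medians were 13.2%, 14.3%, 20.6% and 13.4%. In NT kidneys the median was 12.5% for the mevalonate branch, 15.4% from squalene to cholesterol, 33.2% for fatty acid synthesis and 69.5% for the 3 lipogenic and glycerolipid genes. *Insig2*, at 2.0%, varied least of the members in NT kidneys and *Thrsp*, at 72.4%, most. In NT livers *Acat2*, at 12.1%, varied least and *Pnpla3*, at 124%, most.

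Library by library, the members' median log2 distance from the NT mean was 0.13, -0.04, 0.13 and -0.22 in NT kidneys and 0.09, 0.38, 0.47 and 0.29 in shFos kidneys. The medians of shFos replicates 2, 3 and 4 lay above all NT kidneys and that of replicate 1 did not. In shFos kidneys 8, 29, 21 and 20 of the 34 members exceeded all 4 NT kidneys, in the order of replicates 1 to 4. The matching share of all genes tested is not given here, so these counts do not show that the members differ from other genes. Kidney NT replicate 4 was below the other 3 NT kidneys for 20 members and above them for 10, again without a share of all genes. The log2 CPM of that library correlated (Pearson) at 0.951 to 0.955 with the other NT kidneys, against 0.986 to 0.989 among those. In livers the medians were 0.17, 0.25, -0.33 and -0.03 in NT and 0.50, 0.27, 0.22 and 0.22 in shFos, and 14, 7, 11 and 12 members exceeded all NT livers. Here NT replicate 2 lay above shFos replicates 3 and 4, and NT replicate 3, below the other NT livers for 16 members, was the lowest. The liver counts likewise have no share of all genes beside them and do not set the members apart from other genes. Over all genes tested the medians of the 16 libraries were within 0.02 of 0.

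**Figure D4:**
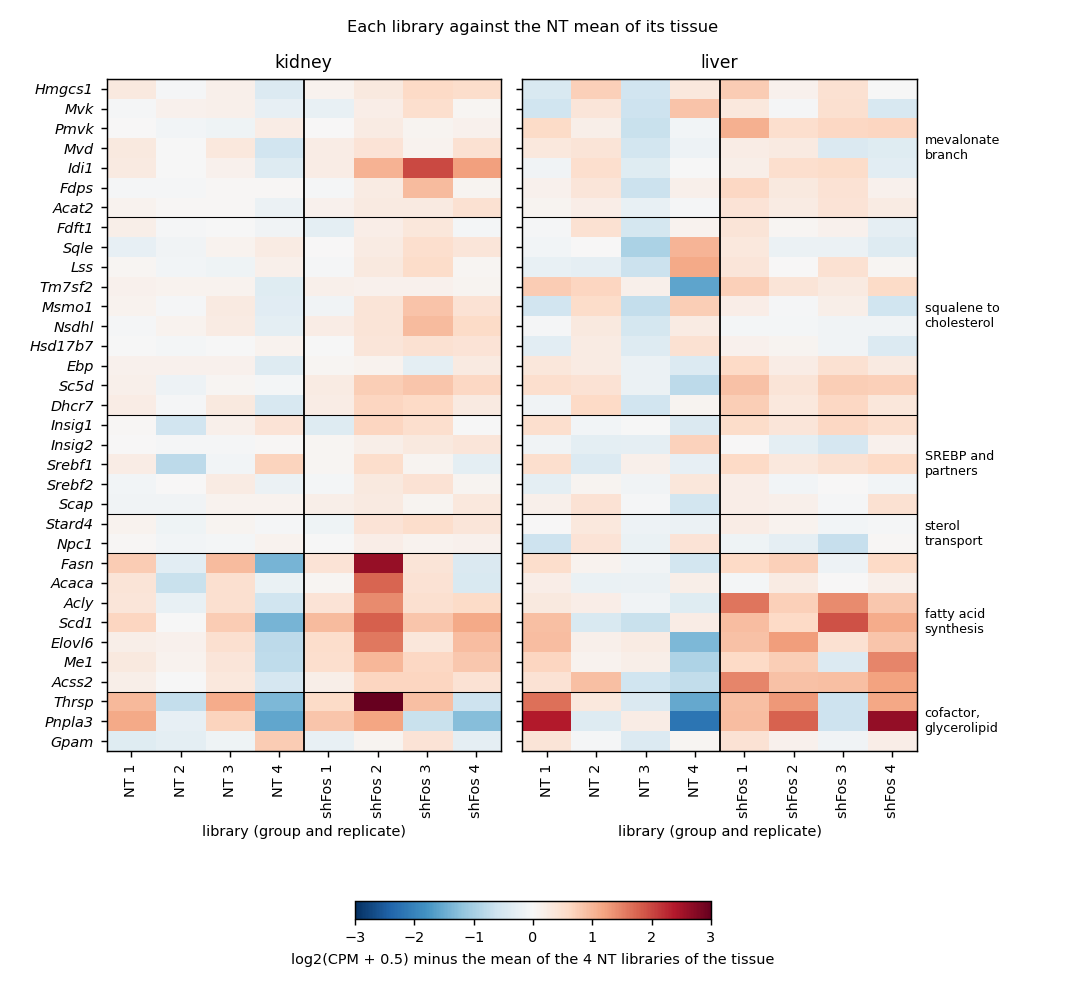
Heat map of log2(CPM + 0.5) minus the mean of the 4 NT libraries of the tissue (colour scale from -3 to 3) for the 34 members by role and the 8 libraries of kidney (left) and liver (right). Kidney shFos replicate 2 is the darkest for fatty acid genes and shFos replicate 3 for several sterol genes, while kidney shFos replicate 1 has a median of only 0.09.

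Whether the shFos difference itself differed between the tissues was tested in the fit of all 16 libraries. No member had an adjusted p under 0.05 by edgeR, which called 0 of 15421 genes with 2482 at an unadjusted p under 0.05 (16.1%), nor by DESeq2, which called 281 genes. An unadjusted p under 0.05 was found for 2 members. For *Nsdhl* the liver difference was lower than the kidney difference by a log2 value of -0.65 ± 0.24 (SE; adjusted p 0.225 by edgeR), and for *Idi1* by -0.99 ± 0.41 (SE; adjusted p 0.262 by edgeR). Without replicate 1 edgeR called 448 genes and 0 members, with 6 members at an unadjusted p under 0.05, 1 higher and 5 lower (8.64% and 10.9% of all genes tested). Without replicate 2 there were 3, all higher (4.90% of all genes tested), and without replicate 4 there were 0. The member with the next smallest p was *Pmvk*, with a difference of 0.57 ± 0.28 (SE; adjusted p 0.330 by edgeR) in the other direction.

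The members' median tissue difference was -0.06, with 13 members above 0 and 21 below (17 and 17 with upper-quartile scaling), and it ranged from -0.29 without replicate 1 to 0.21 without replicate 2, where 21 were above 0. For *Sc5d*, whose kidney value had the smallest p, the difference was -0.00877 ± 0.32 (SE), and for *Acly* it was 0.45 ± 0.40 (SE; adjusted p 0.613 by edgeR). By role the medians were -0.09 for the mevalonate branch, -0.08 from squalene to cholesterol, -0.02 for fatty acid synthesis, -0.02 for the SREBP and partner genes, -0.32 for sterol transport (2 genes) and 0.24 for the lipogenic and glycerolipid genes (3 genes).

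In NT mice the members were expressed at higher levels in liver than in kidney. On the scale of the fit of all 16 libraries, 34 of 34 had a positive log2 difference, with a median of 2.14, against -0.05 over all genes, although *Srebf2* turned to -0.02 with upper-quartile scaling and to -0.04 without replicate 4. Upper-quartile scaling moved the median of all genes from -0.05 to -0.21 and that of the members to 1.98. A higher level in liver at an adjusted p under 0.05 by edgeR was found for 31 members, where 30.2% of all genes tested were higher and 34.4% lower in liver. The exceptions were *Elovl6* (0.78, adjusted p 0.0943), *Me1* (0.30, adjusted p 0.477) and *Srebf2* (0.14, adjusted p 0.393). With single replicates left out the value of *Me1* ranged from 0.16 to 0.39. The call for *Acly*, at 0.72 with an adjusted p of 0.0373, was lost with upper-quartile scaling and without replicate 1, 2 or 4, and *Elovl6* was called without replicate 4.

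The largest differences were those of *Pnpla3*, *Sc5d* and *Thrsp*. *Pnpla3* ranged from 1.63 to 12.3 CPM in NT kidneys and from 22.1 to 535 CPM in NT livers, on the scale of all 16 libraries, with a log2 difference of 4.80 ± 1.017 (SE; adjusted p 0.000652 by edgeR). *Sc5d* ranged from 21.4 to 26.7 CPM in kidney and from 348 to 844 CPM in liver, with a log2 difference of 4.70 ± 0.27 (SE; adjusted p 3.48e-10 by edgeR). *Thrsp* ranged from 5.28 to 29.8 CPM in kidney and from 83.2 to 746 CPM in liver, with a log2 difference of 4.22 ± 0.92 (SE; adjusted p 0.000810 by edgeR). For all 3 genes every liver was above every kidney. At the other end, *Srebf2* ranged from 79.1 to 103 CPM in kidney and from 77.3 to 122 CPM in liver, *Me1* from 108 to 229 and from 112 to 331 CPM, and *Acat2* from 38.9 to 46.2 and from 60.0 to 80.6 CPM. The livers and kidneys overlapped for *Srebf2* and *Me1* and not for *Acat2*, whose log2 difference was 0.71 ± 0.10 (SE; adjusted p 1.14e-05 by edgeR).

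Levels between genes were compared per exon length (RPKM, on the scale of all 16 libraries). *Scd1* was the highest member in both tissues, at a mean of 182 RPKM in NT kidneys and 942 RPKM in NT livers. It was followed in kidney by *Hmgcs1* at 55.1 RPKM, *Me1* at 48.4 RPKM and *Ebp* at 34.04 RPKM, and in liver by *Insig1* at 171 RPKM, *Ebp* at 153 RPKM and *Thrsp* at 149 RPKM. The lowest were *Npc1* in kidney, at 1.71 RPKM, and *Acaca* in liver, at 8.91 RPKM. Exon length here joins all annotated exons of a gene, 11317 bases for *Npc1* and 17074 bases for *Acaca*, so these places depend on that length. Most neighbours in this order did not differ beyond their spread: of 33 neighbouring pairs the 4 libraries were fully separated for 2 in NT kidneys (*Fdps* above *Sc5d* and *Lss* above *Npc1*), 3 in shFos kidneys, and 1 each in NT and shFos livers (*Scd1* above *Insig1*). *Sc5d*, which stood 25th in NT kidneys at 4.99 RPKM, stood 6th in NT livers at 129.9 RPKM.

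**Figure D5:**
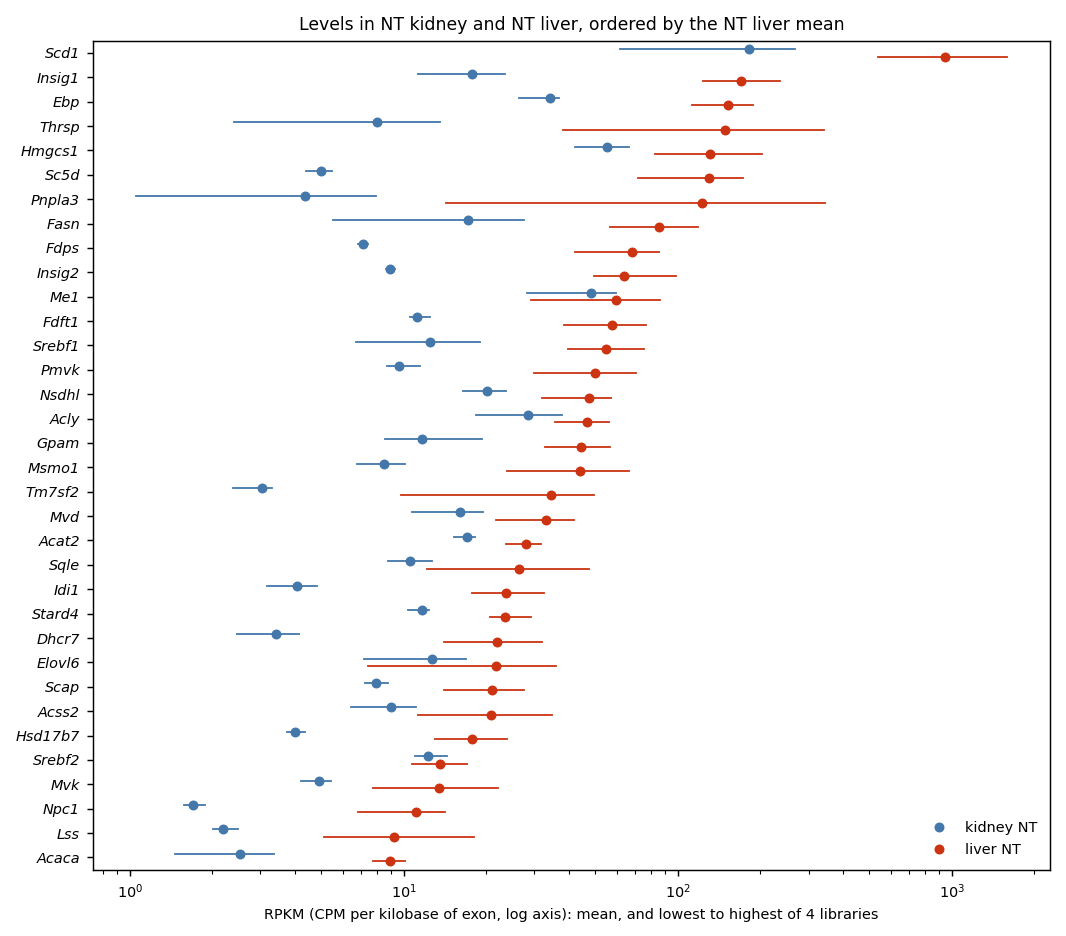
Levels per exon length (RPKM, log axis, scale of all 16 libraries) of the 34 members in NT kidneys and NT livers, with points for the mean and lines from the lowest to the highest of 4 libraries. *Scd1* is highest in both tissues (182 and 942 RPKM), and the lines of kidney and liver overlap for 5 members, *Sqle*, *Acly*, *Elovl6*, *Me1* and *Srebf2*, the last of which flips its direction with upper-quartile scaling.

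Counting ignored strand, and 13 members share exon bases with another annotated gene, so their values are uncertain to that extent. The largest shares of exon length were 26.7% for *Fdps* (with *Gm43738*), 18.3% for *Fdft1* (with *Ctsb*) and 13.2% for *Scap* (with *5830462I19Rik*). *Idi1* shares 9.22% with *Gm48574* and *Me1* 0.780% with *A330041J22Rik*, while *Sc5d*, *Nsdhl*, *Acat2*, *Scd1* and *Acly* share none.

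Beyond the members, 6 lists of related lipid genes held 47 genes, of which 42 were tested in kidney. There 31 lay higher in shFos, and the log2 fold changes had a median of 0.13. At an unadjusted p under 0.05 there were 12 on the higher and 3 on the lower side, 15 in all, against 17.1% and 14.8% of all genes tested, with 0 called by edgeR. In liver all 47 were tested, 28 were higher, the median was 0.04, and 3 had an unadjusted p under 0.05, all higher (3.58% of all genes tested), again with 0 called.

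The 7 genes of SREBP cleavage and sterol-regulated degradation were all higher in shFos kidneys, with a median of 0.39, 5 with an unadjusted p under 0.05 and 4 without overlap between the groups, where 17.1% of all genes tested were higher at that p and 9.16% did not overlap in that direction. *Rnf139*, a ubiquitin ligase of the endoplasmic reticulum, read 48.97, 44.8, 48.3 and 46.5 CPM in NT kidneys and 53.9, 60.8, 68.4 and 65.0 CPM in shFos kidneys. All shFos kidneys lay above all NT kidneys, and the log2 fold change was 0.40 ± 0.09 (SE; adjusted p 0.0660 by edgeR). *Erlin2*, a partner of such ligases, had 0.47 ± 0.11 (SE), also without overlap. In liver 1 of the 7 was higher and none had an unadjusted p under 0.05, the smallest being those of *Erlin2* (0.33) and *Mbtps1* (-0.14), the SREBP protease gene. The tissue difference was negative for all 7, with 3 at an unadjusted p under 0.05 (8.25% of all genes tested were lower at that p) and *Rnf139* at -0.47 ± 0.13 (SE; adjusted p 0.179 by edgeR).

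Of the LXR and ChREBP genes 8 of 10 were tested in kidney, 4 higher and 4 lower, with 1 higher and 2 lower at an unadjusted p under 0.05 (17.1% and 14.8% of all genes tested). *Nr1h2*, which encodes LXR beta, had a log2 fold change of -0.39 ± 0.10 (SE) and *Pklr*, the pyruvate kinase gene known as a ChREBP target, of 0.53 ± 0.14 (SE), both without overlap between the groups. In liver the 10 genes gave none with an unadjusted p under 0.05, and the smallest were those of *Mlxipl* (0.49) and *Mlx* (-0.14). Further fatty acid genes were higher for 8 of 11 in kidney, 2 with an unadjusted p under 0.05, about the share of all genes: *Hsd17b12* (0.53 ± 0.12, SE) and *Elovl2* (0.82 ± 0.32, SE). In liver 11 of 12 were higher, again 2 with an unadjusted p under 0.05 (3.58% of all genes tested were higher at that p), *Elovl3* (2.51 ± 0.85, SE, at no more than 4.26 CPM) and *Mid1ip1* (0.42 ± 0.16, SE).

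Of the 7 glycerolipid and droplet genes 6 were higher in kidney, 2 with an unadjusted p under 0.05 (17.1% of all genes tested), *Cideb* (0.54) and *Dgat2* (0.46). In liver 6 were higher, none with an unadjusted p under 0.05, with *Agpat2* (0.26) and *Cideb* (0.22) at the smallest. Of sterol esterification and bile acid synthesis 4 of 6 genes were tested in kidney, 1 higher and 3 lower. *Soat2*, a sterol acyltransferase, was at -1.09 ± 0.37 (SE) from levels of 0.538 to 2.71 CPM, and *Cyp27a1* at -0.35. In liver 2 of 6 were higher, with *Soat1* (-0.34) and *Soat2* (-0.38) at the smallest p. The 5 isoprenoid branch genes were all higher in kidney, 2 with an unadjusted p under 0.05 (again 17.1% of all genes tested), *Nus1* (0.76 ± 0.20, SE), a subunit of the dolichol synthase, and *Pdss2* (0.40), and in liver 2 were higher. There *Pdss2* (0.53 ± 0.18, SE) had an unadjusted p under 0.05 (3.58% of all genes tested were higher) without overlap between the groups, and *Dhdds* (-0.21) had the next smallest p. The tissue difference of *Nus1* was -0.86 ± 0.23 (SE; adjusted p 0.179 by edgeR).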

How the data were processed

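Kidney and liver RNA-seq was analysed as 4 groups of 4 libraries. The deposited files hold read counts per gene (unit: count), which by the submitters' processing notes were made with Trimmomatic 0.39, HISAT2 2.2.1 and HTSeq 0.12.4 on mm10, and by the study's methods without regard to strand. Reads on no gene made up 13.4% to 26.7% and ambiguous reads 1.84% to 2.64%. CPM (TMM) and RPKM were computed here. A count of 0 allows up to 3 counts (0.156 to 0.230 CPM, counting error only, since PCR reads are not independent molecules).

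Kidney and liver were fitted separately with edgeR 4.0.16 in R 4.3.3 (genes kept by filterByExpr, TMM, robust quasi-likelihood test, p adjusted by Benjamini-Hochberg over all genes tested, calls under 0.05), and tissue differences in a fit of all 16 libraries. Each SE was back-calculated, as the size of the log2 fold change over the square root of the F statistic of that test. DESeq2 1.42.0 was the alternative, limma 3.58.1 gave helper functions and Python 3.11.15 the figures. The pipeline was tested on simulated data. GENCODE M21 supplied positions and exon lengths (98.2% of symbols found). For single genes the CPM were also tested by permuting all 70 assignments of libraries to groups, an exact two-sided test. Other alternatives were upper-quartile scaling, leaving out the filter on low counts or setting it to an average of 10 counts, fitting the 16 libraries jointly, the newer quasi-likelihood method, a replicate block, GC and length corrections (lowess span 0.3), a fold change above 2 or below 0.5, the members without the 5 regulators, and each library left out. Removing 2 kidney libraries together and adding the fold rule to DESeq2 were chosen after seeing the data.

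Members and lists were chosen with earlier results of these data known, so no test over the list was made. Values in every library are given for *Srebf1*, *Srebf2*, *Insig1*, *Sqle*, *Hmgcs1*, *Fasn* and *Scd1*, for the 5 members with the smallest p in each tissue, the 3 in the interaction and the 3 at each end of the tissue contrast, and for a few others chosen after their values were seen. From the wider lists, 2 genes per tissue are named, those of lowest p.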

Additional observations from a re-analysis of the deposited data

Results flagged for a closer look

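A library was set apart where its gap to the nearest of the other 3 libraries of its group was a larger part of the group's whole range than Dixon's critical value for 4 values allows. Of 152 groups of 4 tested this way 11 were found, where chance gives about 7.6. Not every marker list was among the 152 groups. The low proximal tubule sum of kidney NT replicate 4, 4775 CPM (others 13531 to 15298), is not among the 11. In kidney shFos replicate 2 *Fasn* was at 1358 CPM (others 162 to 293), *Acly* at 542 CPM (270.0 to 302), *Thrsp* at 184 CPM (12.4 to 36.5), the brown adipocyte markers at 161 CPM (0.614 to 9.58) and the adrenal cortex markers at 34.5 CPM (8.01 to 8.93). In kidney NT replicate 4 *Tm7sf2* was at 14.4 CPM (20.2 to 20.6), *Ebp* at 83.9 CPM (119 to 121) and *Gpam* at 178 CPM (80.8 to 94.9). In liver NT replicate 4 *Lss* was at 137 CPM (39.4 to 53.6) and *Insig2* at 242 CPM (122 to 138). In liver shFos replicate 3 *Fasn* was at 575 CPM (969 to 1049.8). The cause of these values was not tested.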

How the results depend on the processing

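With 4 libraries a group and a broad shift in many kidney genes, the calls depended on the tool and on the libraries included, and the cause was not tested. In kidney edgeR called 0 genes, DESeq2 2581 (6 members), DESeq2 with the fold rule 378 (2 members), the fit without a filter on low counts 3 and the fit of all 16 libraries 994 (1 member). Members with an unadjusted p under 0.05, all higher, numbered 14 (17.1% of all genes), and 9 with upper-quartile scaling (13.2%), 8 in the fit of all 16 libraries (13.3%) and 7 with both kidney libraries removed (13.1%). In liver DESeq2 called 28 genes (1 member) and 16 with the fold rule (1 member). In the interaction DESeq2 called 281 genes. The median of the 29 members without the 5 regulators was 0.37 in kidney and 0.26 in liver.

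Over the fits that left out a library, kidney calls ranged from 0 to 4126 genes and 0 to 8 members, members with an unadjusted p under 0.05 from 6 to 16, members higher from 29 to 33 and their median from 0.24 to 0.35. In liver these were 0 genes and 0 members, 3 to 13, 22 to 29 and 0.15 to 0.36. For the interaction they were 0 to 448 genes, 0 members, 0 to 6, 11 to 21 and -0.29 to 0.21. For liver against kidney in NT mice they were 8659 to 9944 genes, 30 to 31 members, 30 to 31, 33 to 34 and 2.02 to 2.24.

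Signs changed for single genes. In kidney *Ebp* was -0.0188 and *Srebf1* -0.0261 with upper-quartile scaling, *Srebf1* -0.00483 and *Npc1* -0.0201 with the length correction, and *Npc1* -0.00321 with the GC correction. Without a change of sign, the GC correction lowered kidney values, among others, to 0.21 for *Hmgcs1*, 0.17 for *Hsd17b7*, 0.17 for *Stard4* and 0.13 for *Insig2*. It raised others, to 0.41 for *Srebf2*, 0.44 for *Scap*, 0.29 for *Pmvk*, 0.33 for *Mvk*, 0.49 for *Mvd* and 0.23 for *Srebf1*. The members' kidney median was 0.31 in that setting. With both kidney libraries removed *Fdft1* was -0.0261, *Ebp* -0.0964, *Fasn* -0.39, *Acaca* -0.0980, *Thrsp* -0.23, *Pnpla3* -0.74 and *Gpam* 0.26. In the fit of all 16 libraries liver *Srebf2* was 0.00778, and with upper-quartile scaling the liver against kidney value of *Srebf2* in NT mice was -0.0174. With a library left out, kidney values ranged from -0.0404 to 0.13 for *Fdft1*, -0.0759 to 0.14 for *Ebp*, -0.19 to 0.28 for *Srebf1*, -0.0934 to 1.31 for *Fasn*, -0.0155 to 0.86 for *Acaca*, -0.42 to 0.50 for *Pnpla3* and -0.21 to 0.28 for *Gpam*. Liver values ranged from -0.22 to 0.31 for *Mvk*, -0.24 to 0.0454 for *Mvd*, -0.0962 to 0.21 for *Fdft1*, -0.49 to 0.19 for *Sqle*, -0.13 to 0.60 for *Lss*, -0.0640 to 0.47 for *Tm7sf2*, -0.38 to 0.0843 for *Msmo1*, -0.23 to 0.0524 for *Hsd17b7*, -0.31 to 0.0741 for *Insig2*, -0.10 to 0.11 for *Srebf2* and -0.0276 to 0.15 for *Stard4*. The *Fos* interaction ranged from -0.18 to 0.49 and the liver against kidney value of *Srebf2* in NT mice from -0.0436 to 0.27.

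With the replicate number as a block, kidney *Gpam* was 0.00187, liver *Mvk* 0.0755 and liver *Srebf2* 0.0126, 34 members were higher in kidney with 10 at an unadjusted p under 0.05 (1940 of all 14892 genes), and edgeR called 0. NT and shFos libraries of a tissue share only a number: residual correlations of equal numbers ran from -0.17 to 0.12 in kidney and from -0.26 to 0.04 in liver. Between kidney and liver of NT mice they ran from 0.12 to 0.40, against -0.415 to 0.225 for unequal numbers. In shFos mice they ran from 0.0409 to 0.156, against -0.185 to 0.124 for unequal numbers. The block also joins NT and shFos libraries of the same number, so the fit is not paired by mouse. For liver against kidney in NT mice the fit with this block called 31 members, as without it.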

Other observations

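Of 8 feeding and fasting genes 6 were tested in kidney, 4 higher and 1 with an unadjusted p under 0.05, which is no more than the 17.1% of all genes tested that were higher. That gene, *G6pc*, the glucose-6-phosphatase gene, read 527, 276, 398 and 154 CPM in NT kidneys and 690.4, 741, 1181 and 866 CPM in shFos kidneys. All shFos kidneys lay above all NT kidneys, as for 9.16% of all genes tested, and the log2 fold change was 1.36 ± 0.35 (SE; adjusted p 0.0660 by edgeR). *Igfbp1* was at -0.24 in kidney. In liver *Igfbp1*, a gene known to be repressed by insulin, read 286, 237, 229 and 655 CPM in NT and 144, 208, 177 and 103 CPM in shFos, again without overlap and with a log2 fold change of -1.15 ± 0.37 (SE; adjusted p 0.714 by edgeR). *Pdk4* was at 0.76 in liver. Of 12 clock genes 10 had an unadjusted p under 0.05 in kidney, 3 higher and 7 lower, where 17.1% of all genes tested were higher and 14.8% lower. *Per3* read 27.7, 25.7, 16.9 and 28.3 CPM in NT kidneys and 9.38, 8.11, 5.44 and 6.91 CPM in shFos kidneys, and *Npas2* had a log2 fold change of 1.07. In liver 3 clock genes had an unadjusted p under 0.05, all lower (3.16% of all genes tested), among them *Nr1d1* (-2.54) and *Nr1d2* (-1.09), and the groups overlapped for all 12. The labels give no time of day or feeding state at collection, and the part of either in the members' values was not tested.

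*Mlxipl*, which encodes the carbohydrate-responsive factor ChREBP and was singled out after its values were seen, read 136, 153, 159 and 150.1 CPM in NT kidneys and 141, 58.3, 71.3 and 64.4 CPM in shFos kidneys. Replicates 2, 3 and 4 of the shFos group lay below all NT kidneys and replicate 1 lay among them, as for several members. Its log2 fold change was -0.83 ± 0.26 (SE; adjusted p 0.0789 by edgeR), and the tissue difference was 1.34 ± 0.41 (SE; adjusted p 0.186 by edgeR).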
